A study of Mus musculus with 11 samples.

Results

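Connexin gap junction genes were compared between Atf6+/+ and Atf6-/- mouse cochleae. The 5 genes described are Gjb2, Gjb6, Gjb1, Gja1 and Gjc3, taken by their symbols from the 18667 genes that the 2 expression tables list, and all 5 passed the filter on low values, as did 16169 genes in all. RNA-Seq libraries came from whole cochleae of 2-month-old C57BL/6J mice, a strain that carries the Cdh23ahl allele of age-related hearing loss in both genotypes. In the mutant group Atf6, which encodes a transcription factor of the unfolded protein response, is disrupted in exon 4 in the whole animal, a null allele at the protein level. There were 5 Atf6+/+ libraries and 6 Atf6-/- libraries, 1 for each cochlea, from littermates of both sexes whose sex is not labelled. The labels do not say whether any 2 cochleae came from the same mouse, so the spread between libraries is the only error given here.

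Connexins are the subunits of gap junctions. A ring of them forms a hemichannel in the membrane of a cell, which docks with a hemichannel of the neighboring cell, so that ions and small molecules pass from cell to cell. In the cochlea, gap junctions of connexin 26 and connexin 30 join the supporting cells of the sensory epithelium to each other and the fibrocytes and basal cells of the lateral wall to each other. These networks are known for carrying potassium away from hair cells toward the stria vascularis, and loss of connexin 26 is among the most common inherited causes of deafness. Connexin 32 and connexin 29 are known from the myelin of Schwann cells and oligodendrocytes, and connexin 43 from astrocytes, bone cells and fibroblasts.

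Gjb2 and Gjb6, which encode connexin 26 and connexin 30, lie side by side. On mouse chromosome 14 of the RefSeq assembly GRCm38.p6 the annotated order of genes runs Gja3, Gjb2, Gjb6, Cryl1, Ift88 and Il17d. All 5 connexin genes had an entry in the RefSeq promoter table of that assembly. The stretches of 250 bases before the annotated starts of Gjb2 and Gjb6 are printed because these neighbors had similar levels and moved together from library to library. They read 5′ to 3′ on the strand of the gene, which is the minus strand for both, with each GC box (GGGCGG on either strand) in capitals. The Gjb2 stretch is chr14:57104703-57104952 and the Gjb6 stretch is chr14:57133612-57133861, in GRCm38.p6 and not in the GRCm39 assembly to which the reads were aligned.
Gjb2: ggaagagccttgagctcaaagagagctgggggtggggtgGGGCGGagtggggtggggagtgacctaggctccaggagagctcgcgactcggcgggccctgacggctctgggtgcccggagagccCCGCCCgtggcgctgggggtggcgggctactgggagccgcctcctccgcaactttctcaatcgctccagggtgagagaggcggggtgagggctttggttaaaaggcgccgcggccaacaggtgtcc
Gjb6: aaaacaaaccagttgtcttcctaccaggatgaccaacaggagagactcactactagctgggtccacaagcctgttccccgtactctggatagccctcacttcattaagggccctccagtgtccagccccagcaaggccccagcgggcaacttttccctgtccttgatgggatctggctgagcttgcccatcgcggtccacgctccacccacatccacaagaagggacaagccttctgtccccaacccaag

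The sequences before these neighboring genes differed in composition. The Gjb2 stretch held 69.2% G and C and 18 CpG sites, against medians of 52.4% and 6 CpG sites over the 32851 stretches of the same table, and 2 GC boxes, a motif found in 32.7% of all stretches. The Gjb6 stretch held 56.8% G and C, 5 CpG sites and no GC box. CCACG, the core of the element that ATF6 and XBP1 bind, was searched on both strands and occurred once before Gjb2, once before Gjb6 and once before Gja1. CCACG was present in 28.3% of all stretches. Neither the ER stress element, which contains CCACG and was present in 0.113% of stretches, nor TGACGTG, the core of the unfolded protein response element and present in 1.65%, was found before any of the 5 genes, with 4 annotated starts searched for Gjb1. These matches are letters in a window and carry no measurement of binding.

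Levels are given as FPKM, fragments counted per length of transcript and scaled to the size of the library, a unit that allows levels of different genes to be set side by side. Gjb6 (mean of 217 FPKM over 11 libraries) and Gjb2 (214 FPKM) had the highest levels, above 98.2% and 98.1% of the genes tested. Gjb6 was higher than Gjb2 in 8 of 11 libraries and their ranges overlapped, so the order of these neighbors did not stand apart from their spread. Gjb1 followed at 53.4 FPKM, below Gjb2 in 11 of 11 libraries. Gjc3 had a mean of 29.6 FPKM and was below Gjb1 in 11 of 11 libraries, with a highest value of 36.2 FPKM against a lowest Gjb1 value of 42.4 FPKM. Gja1 had a mean of 24.5 FPKM, and its order with Gjc3 was not set, since Gjc3 was higher in 7 of 11 libraries.

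**Figure D1:**
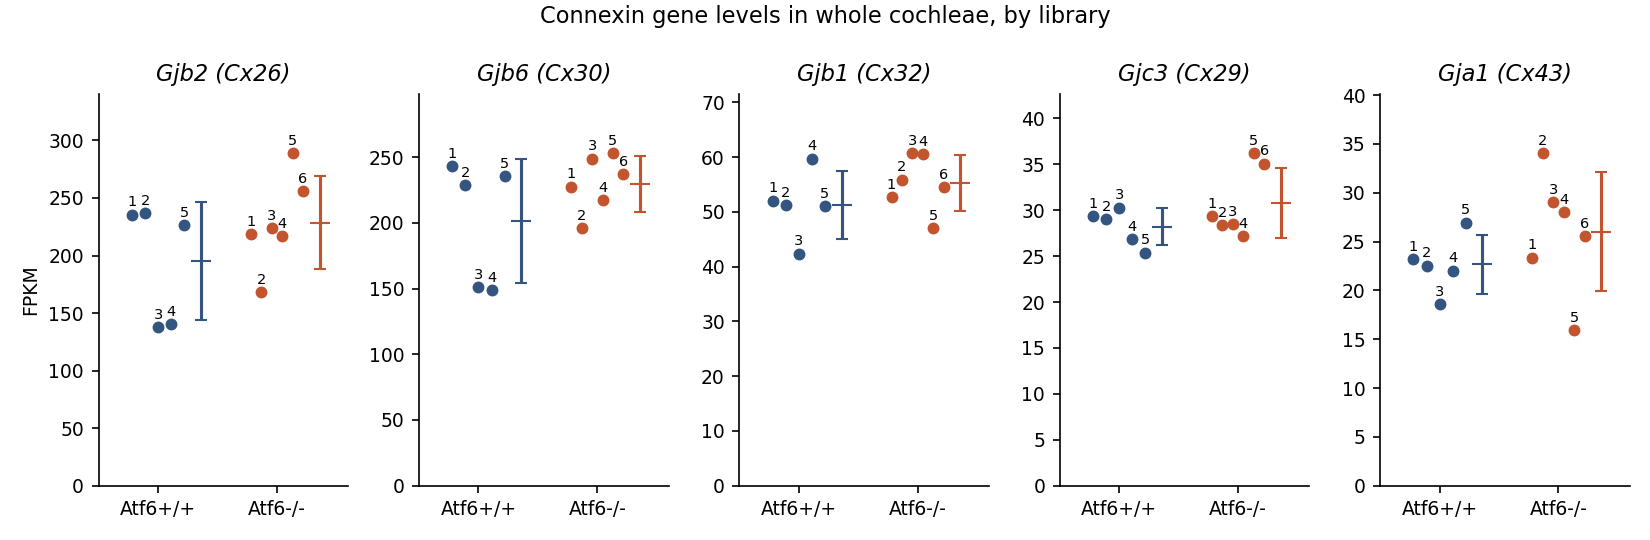
FPKM of the 5 connexin genes (1 panel each, vertical axis from 0) in each library. Each numbered point is 1 library, blue for the 5 Atf6+/+ and orange for the 6 Atf6-/- cochleae, and the bars give the mean and SD. Atf6+/+ replicates 3 and 4 lie below every other library for Gjb2 and Gjb6, and the genotypes overlap in each panel.

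Together these 5 genes made up nearly all connexin RNA by this measure. Of the FPKM summed over the 18 connexin genes listed, they took 95.7% ± 0.983 (SD, n = 5) in Atf6+/+ and 96.2% ± 0.677 (SD, n = 6) in Atf6-/- cochleae. Gjb2 and Gjb6 alone took 75.5% ± 4.84 in Atf6+/+ and 77.1% ± 3.36 in Atf6-/- cochleae. Gjb1 took 10.1% ± 2.38 and 9.41% ± 1.41, Gjc3 took 5.61% ± 1.34 and 5.19% ± 0.422, and Gja1 took 4.42% ± 0.588 and 4.48% ± 1.40, in the same order. Without Atf6+/+ replicates 3 and 4 the shares in Atf6+/+ cochleae were 96.4% ± 0.289 for the 5 genes, 78.9% ± 0.390 for Gjb2 and Gjb6, 8.66% for Gjb1, 4.70% for Gjc3 and 4.08% for Gja1 (n = 3). The shares of each gene overlapped between the genotypes over all libraries, and the composition of connexin RNA was not tested further.

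The targeted gene was lower in every Atf6-/- library. Atf6 was at 9.52 ± 1.11 FPKM (SD) over 5 Atf6+/+ cochleae and at 4.27 ± 0.285 FPKM over 6 Atf6-/- cochleae, with no overlap (log2 fold change -1.13, limma adjusted p = 5.17e-05). Each library was scaled on its own, the genotypes came in separate tables, and the methods state 1 nominal depth for all libraries, but read counts of each library were not used here. Atf6+/+ replicates 3 and 4 stood apart from the other libraries. Their summed level of ligament fibrocyte markers was 3418 and 3479 FPKM, against 4859 to 5068 in the other Atf6+/+ and 4264 to 6792 in the Atf6-/- libraries. Supporting cell markers summed to 801 and 755 FPKM there, against 1325 to 1586 and 1057 to 1723. Neuron markers were higher, at 3963 and 3859 FPKM against 3181 to 3490 and 3082 to 3837, and neutrophil markers were at 3255 and 1282 FPKM against 262 to 579 and 94.2 to 1241. The 2 replicates were not alike in stria vascularis markers, which summed to 175 FPKM in replicate 3 and 57.1 FPKM in replicate 4. The other Atf6+/+ libraries had 184 to 217 FPKM there, and the Atf6-/- libraries 103 to 252 FPKM. The main values are also given without these 2 replicates.

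No difference in Gjb2 between the genotypes passed the test. Its levels in Atf6+/+ replicates 1 to 5 were 236, 237, 138, 141 and 226 FPKM. In the Atf6-/- cochleae the lowest was 168, the median 221 and the highest 289 FPKM. Replicates 3 and 4 were the lowest of all 11 libraries, the other 3 Atf6+/+ cochleae lay inside the Atf6-/- range, and the highest value was that of Atf6-/- replicate 5. Mean levels were 195 ± 51.5 FPKM in Atf6+/+ and 229 ± 40.6 FPKM in the mutant (SD over 5 and 6 libraries), and the log2 fold change was 0.25 (SE 0.18, 95% interval -0.13 to 0.64, limma adjusted p = 0.631). Without Atf6+/+ replicates 3 and 4 the log2 fold change was -0.05 (limma adjusted p = 0.967), on the other side of 0.

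Gjb6 had the same pattern over the Atf6+/+ cochleae, at 243, 228, 151, 149 and 235 FPKM. The Atf6-/- cochleae had a lowest value of 196, a median of 232 and a highest value of 253 FPKM. Replicates 3 and 4 were again the lowest of all libraries, and all 6 Atf6-/- cochleae lay above them. Mean levels were 201 ± 47.2 FPKM and 230 ± 21.3 FPKM (SD over 5 and 6 libraries), and the log2 fold change was 0.22 (SE 0.14, 95% interval -0.08 to 0.52, limma adjusted p = 0.592). It was -0.04 without replicates 3 and 4 (limma adjusted p = 0.948). As fold changes, the intervals over all libraries ran from 0.91 to 1.55 for Gjb2 and from 0.94 to 1.44 for Gjb6. Rises up to the upper bounds and falls down to the lower bounds are therefore not excluded by these libraries. In bulk tissue, fewer cells of a type and less RNA per cell cannot be told apart, here and in each result that follows.

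Gjb1 and Gjc3 are the connexin genes of myelin. Gjb1 was at 52.1, 51.2, 42.4, 59.7 and 51.0 FPKM in Atf6+/+ replicates 1 to 5, and between 47.1 and 60.7 FPKM with a median of 55.2 in the Atf6-/- cochleae. Its lowest library was Atf6+/+ replicate 3 and the groups overlapped (means 51.3 ± 6.15 and 55.3 ± 5.14 FPKM, log2 fold change 0.11, SE 0.09, limma adjusted p = 0.661). Gjc3 was at 29.4, 29.0, 30.3, 26.9 and 25.4 FPKM in Atf6+/+ replicates 1 to 5, and between 27.2 and 36.2 FPKM with a median of 28.9 in the Atf6-/- cochleae. Only Atf6-/- replicates 5 and 6, at 36.2 and 35.1 FPKM, lay outside the range of the Atf6+/+ libraries (means 28.2 ± 2.01 and 30.8 ± 3.85 FPKM, log2 fold change 0.12, SE 0.08, limma adjusted p = 0.619). Without Atf6+/+ replicates 3 and 4 the log2 fold changes were 0.10 for Gjb1 and 0.13 for Gjc3, but single libraries moved them more. For Gjb1 it was 0.04 without Atf6+/+ replicate 3 and 0.17 without Atf6+/+ replicate 4. For Gjc3 it was 0.07 without Atf6-/- replicate 5 and 0.08 without Atf6-/- replicate 6. Their 95% intervals over all libraries, on the log2 scale, ran from -0.08 to 0.30 for Gjb1 and from -0.06 to 0.30 for Gjc3.

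Gja1, which encodes connexin 43, varied most among the Atf6-/- cochleae. It was at 23.2, 22.5, 18.6, 22.02 and 26.9 FPKM in Atf6+/+ replicates 1 to 5. The Atf6-/- cochleae had a lowest value of 15.9 FPKM in replicate 5, a median of 26.8 and a highest value of 34.0 FPKM in replicate 2. These 2 libraries enclosed all the others, of both genotypes. Mean levels were 22.7 ± 2.99 FPKM and 25.99 ± 6.10 FPKM (SD over 5 and 6 libraries), with a log2 fold change of 0.17 (SE 0.16, 95% interval -0.18 to 0.52, limma adjusted p = 0.729). The value depended on single libraries. The log2 fold change was 0.30 without Atf6-/- replicate 5 (limma adjusted p = 0.546), 0.08 without Atf6-/- replicate 2 (limma adjusted p = 0.861) and 0.07 without Atf6+/+ replicates 3 and 4 (limma adjusted p = 0.965).

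Over the 5 genes, no difference between the genotypes was called. Of the 5 connexin genes, 0 had an adjusted p under 0.05, as did 11 of 16169 genes tested (0.068%). By a looser rule, which asks for a limma p of 0.05 or less before adjustment and a log2 fold change beyond 0.05 in size, 0 of 5 were called against 1592 of all genes (9.85%). The genotypes did not overlap in 0 of 5, against 202 of all genes (1.25%). Exact permutation p over all 462 divisions of the libraries, a test whose smallest possible p is 0.00216, ranged from 0.232 for Gjb6 to 0.377 for Gja1. All 5 fold changes were above 0 with a median of 0.17 on the log2 scale, where the median of all genes was -0.01. The genes share libraries, however, and 2 of the 5, Gjb2 and Gjb6, crossed 0 once Atf6+/+ replicates 3 and 4 were left out. These replicates were the lowest libraries for both genes, so leaving them out is no test of the direction.

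**Figure D2:**
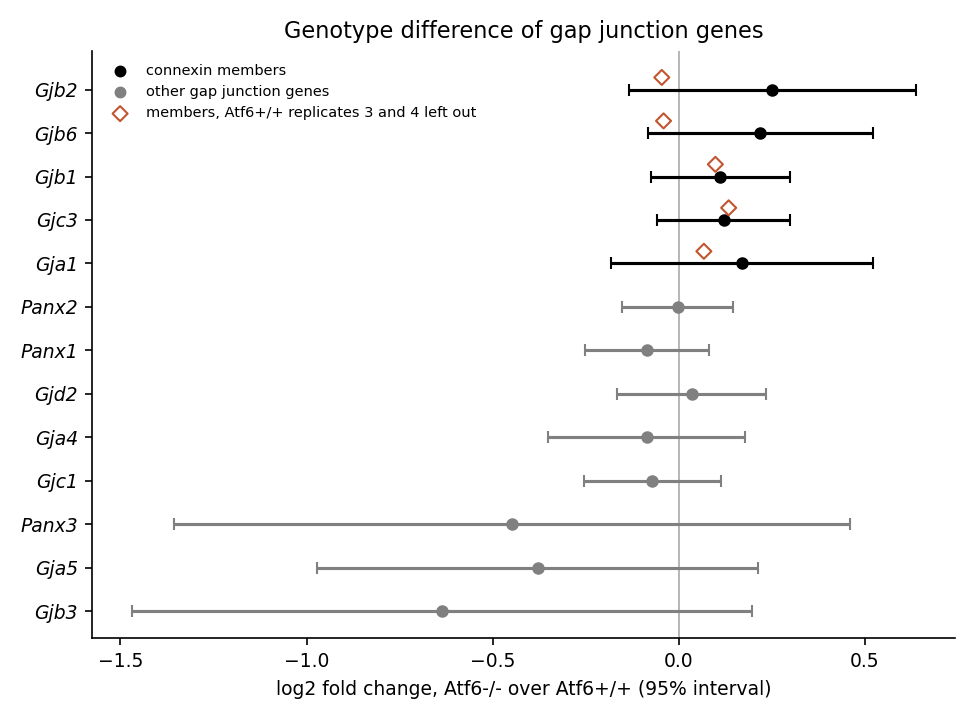
Log2 fold change, Atf6-/- over Atf6+/+, for each gap junction gene (rows). Points and bars give the limma estimate and its 95% interval, black for the 5 connexin genes described and grey for 8 of the 9 other gap junction genes tested, and open orange diamonds give the estimate without Atf6+/+ replicates 3 and 4. Every interval includes 0, and the diamonds of Gjb2 and Gjb6 lie at -0.05 and -0.04.

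Mixed channels of connexin 26 and connexin 30 depend on both subunits, so the ratio of their RNAs was compared as well, which does not depend on how libraries are scaled. The log2 ratio of Gjb2 to Gjb6 was -0.05 ± 0.07 (SD, n = 5) in Atf6+/+ and -0.02 ± 0.15 (SD, n = 6) in Atf6-/- cochleae, close to equal levels in both. They differed by 0.03 (exact permutation p = 0.680). The ratio was widest in the Atf6-/- group, from -0.22 to 0.19. The log2 ratio of Gjb1 to Gjc3 was 0.86 ± 0.25 in Atf6+/+ and 0.85 ± 0.29 in Atf6-/- cochleae, a difference of -0.01 (exact permutation p = 0.944).

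Gjb2 and Gjb6 varied together across the cochleae. Over the 11 libraries their log2 levels had a Pearson r of 0.952 (permutation p = 6e-05, adjusted p = 6e-04 over the 10 pairs of the 5 genes) and a Spearman rho of 0.855 (permutation p = 0.00109, adjusted p = 0.0109). Without Atf6+/+ replicates 3 and 4, the libraries farthest from the median of Gjb2, r was 0.861 (exact permutation p = 0.00467, adjusted p = 0.0467), while rho was 0.75 and did not pass (exact permutation p = 0.0255, adjusted p = 0.128). After the genotype means were taken out, r was 0.944. Among the 13610 other genes whose mean reached 1 FPKM, Gjb6 was the 35th most like Gjb2 and Gjb2 the 28th most like Gjb6. Cryl1, the next gene beyond Gjb6 and an enzyme of sugar metabolism, was at 17.1, 16.5, 10.2, 12.4 and 18.4 FPKM in the Atf6+/+ libraries and between 12.4 and 15.5 FPKM in the Atf6-/- libraries. Over all libraries its log2 fold change was -0.03 (limma adjusted p = 0.961). Without Atf6+/+ replicates 3 and 4 it was -0.27 (limma adjusted p = 0.670), past the looser rule given above. That rule then called 6.25% of all genes. The log2 fold changes of Gjb2 and Gjb6 were then -0.05 and -0.04.

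**Figure D3:**
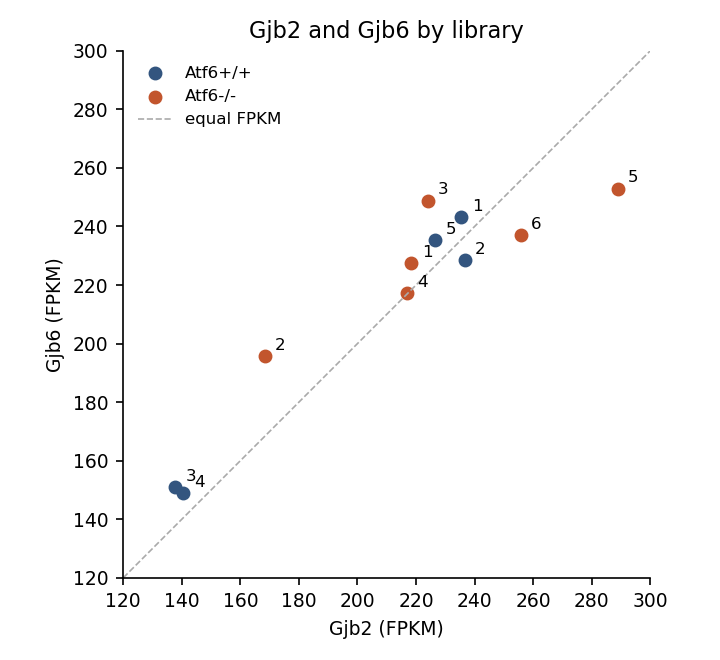
Gjb6 level (vertical axis, FPKM) against Gjb2 level (horizontal axis, FPKM) in 11 libraries, with both axes starting at 120 FPKM. Numbers are replicates, blue Atf6+/+ and orange Atf6-/-, and the dashed line marks equal levels. Atf6+/+ replicates 3 and 4 lie at the lower left, at 138 and 141 FPKM of Gjb2, and the other 9 libraries, between 168 and 289 FPKM of Gjb2, scatter around the line.

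No other pair of the 5 genes passed the adjustment over 10 pairs. Gja1 and Gjb1 had an r of 0.692 (permutation p = 0.0186, adjusted p = 0.093) and a rho of 0.664 (permutation p = 0.03, adjusted p = 0.15). Gja1 and Gjc3 had an r of -0.54 (permutation p = 0.09, adjusted p = 0.30), and -0.75 after the genotype means were taken out (permutation p = 0.00594, adjusted p = 0.0297), which rho did not pass (adjusted permutation p = 0.0655). With the genotype means left in, r was -0.21 without Atf6-/- replicates 2 and 5 (exact permutation p = 0.583). It was -0.33 after rescaling to a common sum (permutation p = 0.327). The relation with the means taken out was not tested in these 2 settings. Gjb1 and Gjc3, both of myelin, had an r of -0.41 (permutation p = 0.216, adjusted p = 0.432). The pattern of each gene was therefore set beside the mean log2 level of 14 lists of cell type markers, with p-values adjusted over the 70 pairs, of which 13 passed by Pearson r and 9 by Spearman rho.

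Gjb2 and Gjb6 followed the markers of spiral ligament fibrocytes, cells that are linked by connexin 26 and connexin 30 channels. For Gjb2 and the ligament list r was 0.975 (permutation p = 3e-05, adjusted p = 0.00175) and rho 0.791 (permutation p = 0.00556, adjusted p = 0.0461), and r was 0.964 without Atf6+/+ replicates 3 and 4 (exact permutation p = 0.000893, adjusted p = 0.0215). For Gjb6, r was 0.920 (permutation p = 5e-05, adjusted p = 0.00175), rho 0.882 (permutation p = 0.00073, adjusted p = 0.0135), and r without those libraries 0.870 (exact permutation p = 0.00394, adjusted p = 0.0481). By rho neither passed without them (0.633 and 0.783, adjusted exact permutation p of 0.333 and 0.241). The most abundant gene of that list, Coch, which encodes the extracellular protein cochlin, was at 2598, 2870, 2040, 2024 and 2571 FPKM in the Atf6+/+ libraries and reached 3731 FPKM in Atf6-/- replicate 5, the library with the most Gjb2. Otos, which encodes otospiralin of fibrocytes, was lowest in the same Atf6+/+ replicates, at 984 and 1188 FPKM. The log2 fold change was 0.33 for Coch and 0.32 for Otos, with limma adjusted p of 0.481 and 0.520, and 0.17 and 0.06 without Atf6+/+ replicates 3 and 4.

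The relation of Gjb2 and Gjb6 to markers of the sensory epithelium was not held by the other 9 libraries alone. The hair cell list had an r of 0.858 with Gjb2 (permutation p = 0.00178, adjusted p = 0.0138) and 0.888 with Gjb6 (permutation p = 0.00129, adjusted p = 0.0113). The supporting cell list, whose most abundant gene S100a1 was at 627 and 598 FPKM in Atf6+/+ replicates 3 and 4 and at 821 to 1381 FPKM in the other 9 libraries, had an r of 0.80 (permutation p = 0.00614, adjusted p = 0.0391) and 0.890 (permutation p = 0.00388, adjusted p = 0.0272). None of these 4 relations passed by rho over the 11 libraries, where adjusted permutation p ranged from 0.199 to 0.347. By rho, Gjb6 and the supporting cell list passed once the genotype means were taken out (0.818, adjusted permutation p = 0.0261), as did Gjb6 and the hair cell list after rescaling to a common sum (0.80, adjusted permutation p = 0.0457). Without replicates 3 and 4 all 4 missed the threshold, with r between 0.178 and 0.560 and adjusted exact permutation p from 0.325 to 0.845. For the stria vascularis list, which was lowest of all libraries in Atf6+/+ replicate 4, the reverse was seen. Its r with Gjb2 was 0.725 (permutation p = 0.0125, adjusted p = 0.0583) with a rho of 0.882 (permutation p = 0.00076, adjusted p = 0.0135), and r became 0.840 without the same libraries (exact permutation p = 9.65e-05, adjusted p = 0.00676). With Gjb6 it was 0.715 (permutation p = 0.0232, adjusted p = 0.0902), with a rho of 0.845 (permutation p = 0.00187, adjusted p = 0.0262), and 0.892 without them (exact permutation p = 0.00148, adjusted p = 0.0259). By rho without them, the stria list passed with Gjb2 (0.950, adjusted exact permutation p = 0.0247) but not with Gjb6 (0.817, adjusted exact permutation p = 0.241).

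Gjb2 and Gjb6 ran opposite to neuron markers. The neuron list, of which the synaptic gene Snap25 and the neurofilament gene Nefh are the most abundant, had an r of -0.92 with Gjb2 (permutation p = 0.00016, adjusted p = 0.00224) and -0.96 with Gjb6 (permutation p = 0.00022, adjusted p = 0.00257), with rho of -0.79 (permutation p = 0.00509) and -0.80 (permutation p = 0.00447), both at an adjusted p of 0.0461. One of its 9 genes, Prph, an intermediate filament gene of peripheral neurons, was at 13.3 and 41.5 FPKM in Atf6+/+ replicates 3 and 4 and at 1.49 to 2.40 FPKM in the other 9 libraries. With Prph left out of the list r was -0.90 with Gjb2 (permutation p = 0.00017, adjusted p = 0.00238) and -0.85 with Gjb6 (permutation p = 0.00045, adjusted p = 0.00525), and rho, at -0.74 with each, no longer passed (adjusted permutation p = 0.0994). Over all 9 genes, without Atf6+/+ replicates 3 and 4 the values of r were -0.79 and -0.78, with adjusted exact permutation p of 0.108 and 0.112. After rescaling to a common sum r was -0.81 and -0.88 and still passed (adjusted permutation p of 0.0256 and 0.0247), while rho was -0.47 and -0.57 and did not (adjusted permutation p of 0.429 and 0.306). Gjb6 also ran opposite to neutrophil markers (r = -0.74, permutation p = 0.0086, adjusted p = 0.0463), but not by rho (-0.60, permutation p = 0.0572, adjusted p = 0.284) or without those libraries (r = -0.40).

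Gja1 followed the markers of central glia. With the astrocyte list, led by Gfap, an intermediate filament gene, and Aldoc, an aldolase, r was 0.927 (permutation p = 8e-05, adjusted p = 0.00175) and rho 0.882 (permutation p = 0.00077, adjusted p = 0.0135). With the oligodendrocyte list r was 0.922 (permutation p = 1e-04, adjusted p = 0.00175) and rho 0.955 (permutation p = 1e-05, the smallest that the resampling can give, adjusted p = 7e-04). Without Atf6-/- replicates 2 and 5, r was 0.850 for astrocyte (exact permutation p = 0.00412, adjusted p = 0.0481) and 0.918 for oligodendrocyte markers (exact permutation p = 0.000923, adjusted p = 0.0215). By rho the oligodendrocyte relation then passed (0.933, adjusted exact permutation p = 0.0263) and the astrocyte relation did not (0.783, adjusted exact permutation p = 0.241). Gfap was at 226 FPKM and Aldoc at 181 FPKM in replicate 2, where Gja1 was highest, and at 103 and 75.6 FPKM in replicate 5, where it was lowest. With the bone list r was 0.13, although osteocytes are joined by connexin 43.

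Gjb1 shared the oligodendrocyte pattern. Its r with that list was 0.863 (permutation p = 0.00067, adjusted p = 0.0067) and its rho 0.782 (permutation p = 0.00593, adjusted p = 0.0461), but r was 0.699 without Atf6+/+ replicate 3 and Atf6-/- replicate 3 (exact permutation p = 0.0348, adjusted p = 0.152) and then missed the threshold. Mobp, a myelin gene of oligodendrocytes and the most abundant of the list, was at 69.4, 68.6, 45.3, 81.4 and 76.4 FPKM in Atf6+/+ replicates 1 to 5 and at 54.5 to 122 FPKM in the Atf6-/- libraries, so that it too was lowest in Atf6+/+ replicate 3. With the Schwann cell list Gjb1 had an r of -0.04. By Pearson r, Gjc3 had its closest relation with that list, at 0.752 (permutation p = 0.00839, adjusted p = 0.0463), which did not pass by rho (0.483, permutation p = 0.133, adjusted p = 0.405). Its rho was higher with stria vascularis (0.606) and ligament fibrocyte markers (0.542), and neither passed (adjusted permutation p of 0.283 and 0.347). Without Atf6-/- replicates 5 and 6 its r with the Schwann cell list was 0.133, so that relation rests on those 2 libraries. In bulk tissue these relations do not place a connexin in a cell type.

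**Figure D4:**
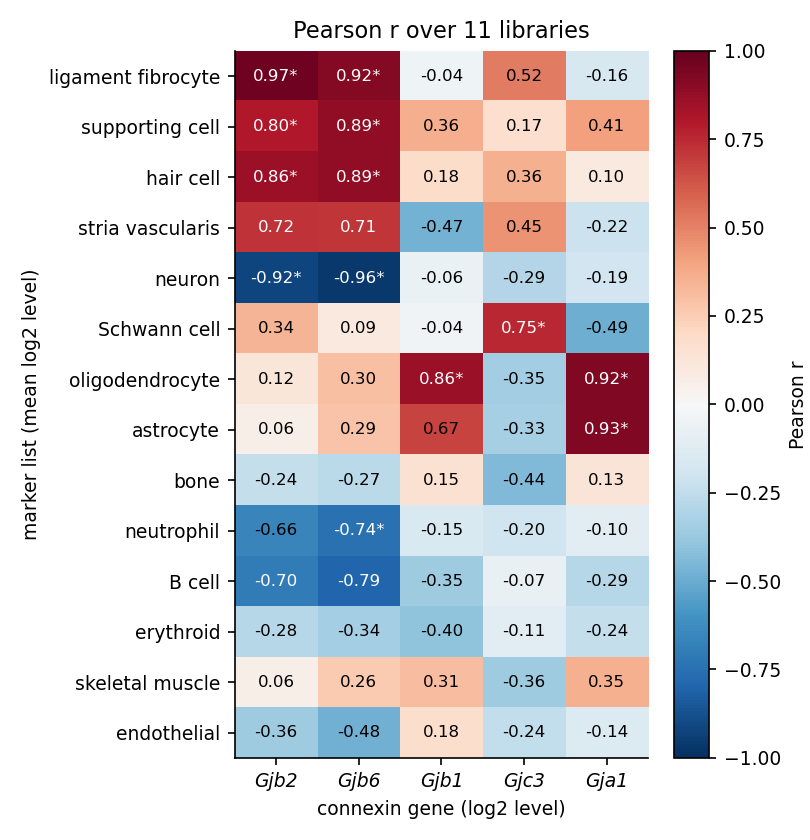
Pearson r over 11 libraries between the log2 level of each connexin gene (columns) and the mean log2 level of each of 14 marker lists (rows). Color runs from -1 (blue) to 1 (red), and a star marks the 13 pairs with an adjusted permutation p under 0.05. Gjb2 and Gjb6 share the ligament fibrocyte and, inversely, the neuron rows, Gjb1 and Gja1 share the oligodendrocyte row, and Gjc3 is starred in the Schwann cell row alone.

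**Figure D5:**
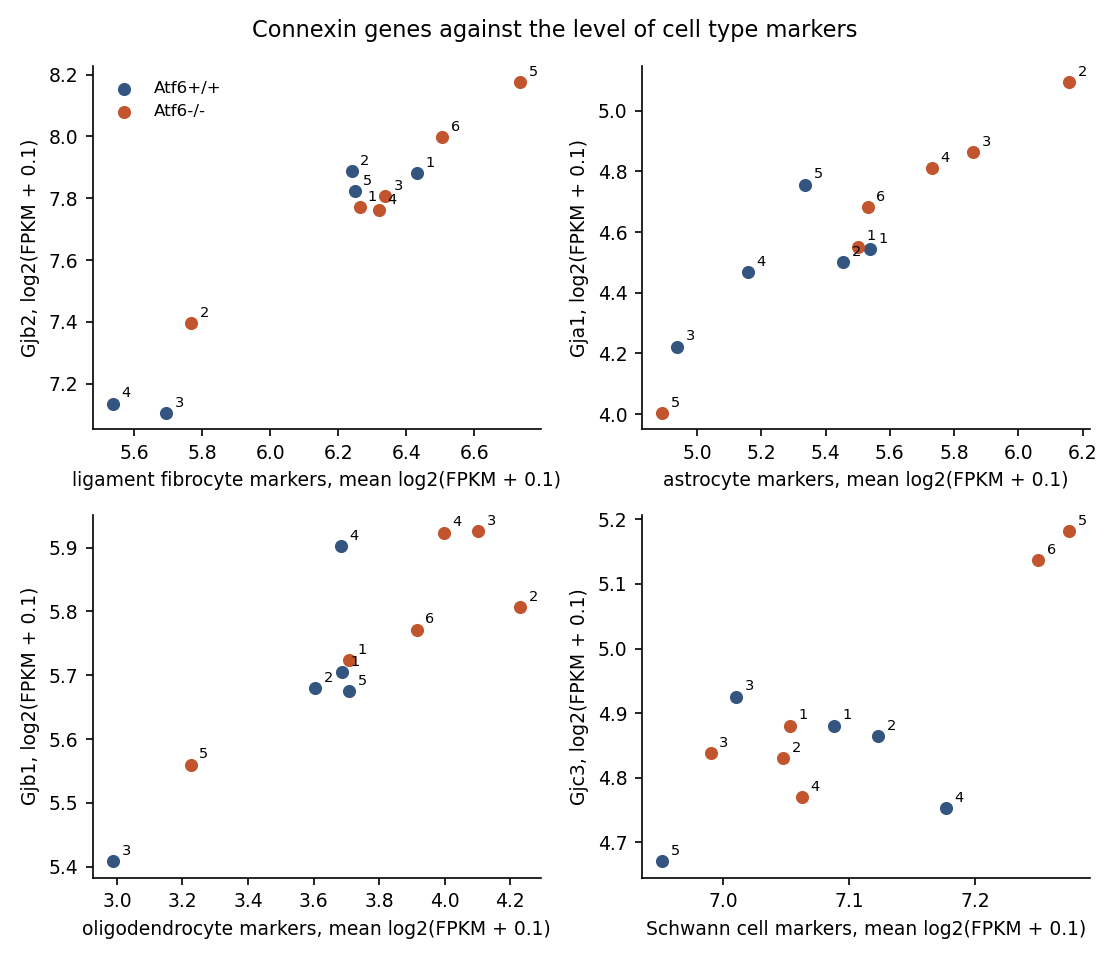
Log2 level of 1 connexin gene (vertical axis) against the mean log2 level of 1 marker list (horizontal axis) in 4 panels, log2(FPKM + 0.1) on both, with numbered libraries in blue (Atf6+/+) and orange (Atf6-/-). Points follow a line for Gjb2 and ligament fibrocyte markers (r = 0.975), Gja1 and astrocyte markers (r = 0.927) and Gjb1 and oligodendrocyte markers (r = 0.863), while for Gjc3 and Schwann cell markers Atf6-/- replicates 5 and 6 stand apart at the upper right.

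The marker levels themselves were compared between the genotypes, because each connexin moved with some of them. The looser rule, which called 9.85% of all genes, is used for the counts here. Of 9 ligament fibrocyte markers tested, 8 were higher in Atf6-/- cochleae, with a median log2 fold change of 0.32, and 2 passed. Of 10 hair cell markers 9 were higher (median 0.26, 2 passed), and of 11 supporting cell markers 9 were higher (median 0.15, 2 passed). Of 8 oligodendrocyte markers, 7 were higher (median 0.33, 1 passed), and all 4 astrocyte markers were higher (median 0.31, 0 passed). Of 12 Schwann cell markers, 7 were higher (median 0.02, 2 passed, both upward), and of 11 stria vascularis markers 7 were higher (median 0.04, 1 passed, upward). The lists of blood and marrow cells held the most calls, all downward. Of 10 erythroid markers 10 were lower (median -1.46, 8 passed), of 10 neutrophil markers 10 were lower (median -1.52, 5 passed), and of 9 B cell markers 8 were lower (median -0.76, 4 passed). Of 9 neuron markers 9 were lower (median -0.14, 2 passed), and of 12 bone markers 11 were lower (median -0.31, 0 passed). Of 7 endothelial markers 5 were lower (median -0.11), and 1 passed upward and 1 downward. Of 8 skeletal muscle markers 5 were higher (median 0.18, 0 passed), and their sum was 46.65 FPKM in Atf6-/- replicate 3 and at most 7.22 FPKM elsewhere. None of these genes had an adjusted p under 0.05 in limma, and none was at 0 in every library.

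Most of these shifts were smaller without Atf6+/+ replicates 3 and 4, where the looser rule called 6.25% of all genes. The median was then 0.07 for ligament fibrocyte, -0.07 for hair cell, -0.02 for supporting cell, 0.18 for oligodendrocyte and 0.15 for astrocyte markers, with 1 call among these 5 lists. It was below 0.01 in size for neuron markers and -0.56 for neutrophil markers, with 0 called in either, while the erythroid list stayed at -1.34 with 5 of 10 called. For stria vascularis markers the median was -0.72, with 10 of 11 lower and 2 called.

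When the ligament fibrocyte level was added to the model, the fold change was -0.02 for Gjb2 and 0.03 for Gjb6 on the log2 scale. With the Schwann cell level added, it was 0.08 for Gjc3 and 0.12 for Gjb1. With the oligodendrocyte level added, it was -0.02 for Gjb1, -0.11 for Gja1 and 0.22 for Gjc3 (limma adjusted p = 0.363). These levels were added after the data were seen, and come from the same libraries in which some of the connexins moved with them. Such fits cannot tell what part these cell types have in the connexin values, and that part was not tested.

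By likeness alone, the 3 genes closest to each connexin over the 11 libraries, among 13611 genes whose mean reached 1 FPKM, were found and are given with r and no test. For Gjb2 they were Meltf (0.985), Csad (0.978) and Arhgef16 (0.976). Csad encodes a decarboxylase of taurine synthesis and ranged over the Atf6+/+ libraries from 15.5 to 23.5 FPKM and over the mutant ones from 17.2 to 26.5 FPKM. For Gjb6 they were Kdf1 (0.985), Cdo1 (0.976) and Ripk4 (0.976), of which Cdo1, a cysteine dioxygenase, lay between 25.1 and 59.9 FPKM in Atf6+/+ and between 35.7 and 61.4 FPKM in Atf6-/- libraries. For Gjb1 they were Nkx6-2 (0.958), a homeobox gene, Wscd1 (0.956) and Klk6 (0.924), a protease that is on the oligodendrocyte list. For Gja1 they were Adcyap1r1 (0.964), a neuropeptide receptor, Mlc1 (0.960), a membrane protein known from astrocytes, and Ntsr2 (0.953), a neurotensin receptor. For Gjc3 they were Ankrd50 (0.958), Katnip (0.956) and Fbxl17 (0.953). None of these 15 genes was called between the genotypes, with limma adjusted p from 0.505 to 0.840.

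Among the other gap junction genes, 9 could be tested, and 0 of 9 were called by either rule. Panx2, a pannexin, had the highest level, with a mean of 77.3 FPKM in Atf6+/+ cochleae against 77.1 FPKM in the mutant. Panx1 was at 15.4 and 14.4 FPKM and Gjd2, a connexin of neurons, at 6.89 and 7.10 FPKM. Gja4, a connexin of vessels, was at 4.51 and 4.18 FPKM. In Atf6-/- cochleae 2 of these 9 lay higher and 7 lower, with a median of -0.08 on the log2 scale. The other 7 that were listed had means below 0.1 FPKM and were not tested.

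Genes that act with connexins were set beside them from lists. Of 13 genes for partners of connexins at the membrane, 0 passed either rule, with 9 higher, 4 lower and a median of 0.02 on the log2 scale. Tjp1, which encodes the scaffold ZO-1, was at 37.1 and 40.6 FPKM, and Erp29, a chaperone of connexin assembly, at 42.8 and 43.4 FPKM. Of 16 genes tested that carry potassium through the cochlea, 12 were higher and 4 lower (median 0.07), and 2 passed the looser rule, both upward, a share set against 9.85% of all genes. Kcnj10, the potassium channel of intermediate cells of the stria vascularis and of supporting cells, was at 53.0, 48.1, 40.0, 32.03 and 51.8 FPKM in Atf6+/+ replicates 1 to 5 and at 51.5 to 64.0 FPKM in the Atf6-/- cochleae (log2 fold change 0.37, limma adjusted p = 0.403). Kcnj16, a channel subunit that pairs with it, was at 28.3, 25.4, 14.0, 11.4 and 23.2 FPKM and at 21.4 to 41.1 FPKM (log2 fold change 0.56, limma adjusted p = 0.505). Both were lowest in Atf6+/+ replicates 3 and 4, as Gjb2 and Gjb6 were, and without these replicates the log2 fold changes were 0.17 and 0.15, with limma adjusted p of 0.799 and 0.921 and 0 of the 16 genes passing. Of the 11 chromosomal neighbors of Gjb2 and Gjb6 tested, 3 were higher and 8 lower, with a median of -0.01, and 0 passed either rule. Without Atf6+/+ replicates 3 and 4, 2 were higher and 9 lower, and 1, Cryl1, passed the looser rule. That rule then called 6.25% of all genes.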

How the data were processed

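RNA was measured in 11 libraries of whole cochleae. Per the methods and the submitters' processing notes, the authors aligned stranded reads with HISAT2 2.0.4 to GRCm39 and estimated levels with RSEM (version 1.2.12 in the processing notes), and the deposited unit is FPKM with 2 decimals. Columns of comparisons by the authors were not used, nor were read counts, so beyond the nominal depth that the methods state for all libraries the reads behind each value are unknown.

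FPKM from both tables were joined by NCBI gene identifier, 0.1 was added and log2 taken, so fold changes on this scale understate changes of low genes. The 16169 genes whose mean reached 0.1 FPKM were fitted with limma 3.58.1 (R 4.3.3), with genotype as the only term and variances moderated along the mean. Tests were two-sided, and p-values were adjusted over these genes by the Benjamini-Hochberg method. The model is the study's comparison of genotypes, moved to a log-scale test because counts were not used. Single genes and ratios were also tested by exact permutation, two-sided, over 462 divisions into 5 and 6 libraries. Correlations used 100000 resamples, or exact permutation with 9 libraries.

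The 5 genes and all lists were chosen with earlier results of these data known. Genes were named by a rule: the 5 connexins, Atf6, the 5 most abundant other gap junction genes, list genes past the looser rule, the 2 most abundant genes of a marker list, and the 3 genes most like each connexin. Cryl1, Prph, Tjp1 and Erp29 fall outside it and were chosen after their values were seen, and some genes that the rule names are not reported here. Promoter stretches come from RefSeq GRCm38.p6. Alternatives were pseudocounts of 0.01 and 1, other filters, TPM, median-of-ratios scaling, robust variance, a replicate block, a bone marrow score as a covariate and leaving out each library. Leaving out Atf6+/+ replicates 3 and 4 together and the 3 cell type levels as covariates, and leaving Prph out of the neuron list, were added after the data were seen. Python 3.11.15 with numpy 2.4.6, pandas 2.3.3 and scipy 1.17.1 was used for the other steps.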

Additional observations from a re-analysis of the deposited data

How the results depend on the processing

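Over 24 alternatives, 0 of the 5 connexin genes reached an adjusted p under 0.05 in limma, and the lowest adjusted p ranged from 0.363 for Gjc3 to 0.546 for Gja1. Of 322 alternative values, 297 kept their direction and their side of the threshold, or their size where no test applied. Directions changed as follows, and the cause was not tested. The log2 fold change of Gjb2 was -0.018 with a bone marrow score as a covariate, -0.015 with the ligament fibrocyte level and -0.046 without Atf6+/+ replicates 3 and 4, and that of Gjb6 was -0.028 with the bone marrow score and -0.041 without those replicates. With the oligodendrocyte level as a covariate it was -0.017 for Gjb1 and -0.11 for Gja1. Leaving out each library in turn gave 0.14 to 0.34 for Gjb2, 0.12 to 0.30 for Gjb6, 0.04 to 0.17 for Gjb1, 0.08 to 0.30 for Gja1 and 0.07 to 0.15 for Gjc3. By the looser rule 1 of the 5 was called in place of 0 after rescaling to TPM (Gjb1) and with the oligodendrocyte level (Gjc3), and 0 to 1 on leaving out a library (Gja1 without Atf6-/- replicate 5). The other gap junction genes gave 0 to 1 on leaving out a library. Of all genes, 4 were called with a replicate block and 6 with the bone marrow score in place of 11, and 8 to 13 on leaving out a library. By the looser rule 858 were called with the bone marrow score and 1010 without Atf6+/+ replicates 3 and 4, in place of 1592. The difference in the Gjb2 to Gjb6 log2 ratio ran from -0.011 (without Atf6-/- replicate 5) to 0.071 on leaving out a library. That of Gjb1 to Gjc3 ran from -0.10 to 0.084 and was 0.033 with the replicate block. With residuals from the genotype means 2 pairs of the 5 genes passed in place of 1, and without the 2 libraries farthest from the median 6 of the 70 relations to marker lists passed in place of 13. Same-numbered libraries of the 2 genotypes did not deviate together (correlations of their deviations from -0.21 to 0.12 over 5 numbers). The labels do not say whether the numbers pair libraries, and the replicate block stands only here. It changed no call of the 5 genes. Read counts of each library were not used, and 5 and 6 libraries limit what can be seen.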
